A study of Mus musculus with 8 samples.

Results

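Snhg1 is a host gene whose introns hold small nucleolar RNAs (snoRNAs), and 8 of the 5518 rows of the count tables lie in it. They are the rows on chromosome 19 between fixed bounds around the gene, chosen by position and not by their counts. All 8 had counts, as did 856 rows of the tables as a whole, and all 8 passed the filter on low counts in every comparison. For Snord22 this rested, in the comparisons named below, on the group with the higher counts alone. The groups were mouse embryonic stem (MES) cells of the line B6G-2, grown without feeders and not induced, and mouse embryonic fibroblasts (MEFs) with a conditional TRF2 knockout allele. TRF2 is a protein that protects telomeres, and in these MEFs a CreERT2 recombinase expressed from Rosa26 removes it once induced with 4-hydroxytamoxifen, here 0.6 µM during 48 hours. Target-enrichment sequencing of small RNAs (TEsR), a hybridisation capture without size selection run on a MiSeq, gave 2 MES libraries and 4 MEF libraries, and the usual TruSeq protocol for small RNA, read on a HiSeq, gave 2 libraries of induced MEFs by their titles, in a table whose name calls them control. The 4 MEF libraries by TEsR are 2 induced and 2 uninduced by the sample titles, but their codes (MEFmmS1, MEFmmS2, MEFpmS1, MEFpmS2) are not explained. They form 1 group here, whose spread includes any effect of induction, and induced was not compared with uninduced.

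Total counts over annotated small RNAs were 2676776 to 2785150 in MES, 3221641 to 3768668 in MEFs by TEsR and 8442960 to 8961221 by TruSeq. In each library 2 rows outside Snhg1 held 67.8% to 83.1% of these counts. The labelled cell types were checked on microRNA markers. A list of 14 pluripotency microRNAs gave 18 rows. Overlapping rows with identical counts were taken once, so Mir290b and Mir292b had no row of their own. The 18 rows summed to 475 to 517 CPM (counts scaled to the library total) in MES, with 12 rows above 0, to 0 to 1.33 in MEFs by TEsR and to 0 by TruSeq. The rows at 0 in MES were second entries of microRNAs that had counts in their other row. The 11 fibroblast microRNA rows summed to 4.86 to 7.18 CPM in MES, with 3 to 4 rows above 0, to 171 to 1179 in MEFs by TEsR and to 62.4 to 98.98 by TruSeq, with Mir145b at 0 in every library. Whether the libraries within a group are separate cultures is not stated in the labels, and p-values therefore measure spread among these samples only, possibly technical spread. As these are bulk samples, fewer cells of a type and less RNA per cell cannot be told apart.

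Box C/D snoRNAs are guides that bring the 2'-O-methyltransferase fibrillarin to ribosomal RNA by base pairing upstream of a short D box. In mammals most of them are cut out of introns that have been spliced from a host transcript, and are then trimmed to their ends, where the C and D boxes are held together by a short stem and bound by core proteins. Snhg1 is known as the U22 host gene: its spliced RNA is noncoding, and Snord22 (U22) is known for a role in the maturation of the small-subunit ribosomal RNA.

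The annotated Snhg1 gene (ENSMUSG00000108414, chr19:8723475-8726443, mm10, plus strand) has a transcript of 10 exons and 9 introns, and each of the first 8 introns held exactly 1 of the rows. The snoRNAs were 65 to 126 bases long and overlapped no other row of the tables. All sequences are printed in host order, because the rows differ so widely in count that their boxes and lengths are the first thing to compare. They are from the GENCODE vM21 transcripts, 5′ to 3′, written as DNA, with a first TGATGA (C box) within the first 25 bases and a last CTGA (D box) within the last 15 bases in capitals.
Gm25855: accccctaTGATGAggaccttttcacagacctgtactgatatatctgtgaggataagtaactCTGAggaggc
Gm25894: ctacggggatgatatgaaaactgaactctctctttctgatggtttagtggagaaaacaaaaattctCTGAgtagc
Gm24452: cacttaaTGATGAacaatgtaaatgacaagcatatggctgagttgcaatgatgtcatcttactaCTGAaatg
Gm24453: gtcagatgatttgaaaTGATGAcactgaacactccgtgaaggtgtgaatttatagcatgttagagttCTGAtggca
Gm22744: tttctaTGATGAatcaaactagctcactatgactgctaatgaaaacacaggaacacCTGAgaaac
Gm22680: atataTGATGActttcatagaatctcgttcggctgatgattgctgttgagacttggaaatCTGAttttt
Gm23246: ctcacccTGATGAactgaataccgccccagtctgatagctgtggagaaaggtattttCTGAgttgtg
Snord22: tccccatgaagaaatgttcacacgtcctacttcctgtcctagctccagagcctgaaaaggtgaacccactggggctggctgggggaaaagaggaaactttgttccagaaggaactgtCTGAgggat

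CTGA ended all 8 sequences, with 4 to 6 bases after it, against 31.4% of the 1507 annotated snoRNA transcripts searched in the same window. TGATGA was found in 6 of 8, against 21.8% of those transcripts, and not in Gm25894 or Snord22. The 1507 are all transcripts typed snoRNA, not box C/D snoRNAs alone. The shares therefore do not show whether the Snhg1 rows differ from other box C/D snoRNAs. Only the strand of the RNA was searched, and a match describes the letters alone. Between the marked matches lay 44 bases in Gm22744 and Gm23246, 45 in Gm24453, 48 in Gm25855, 49 in Gm22680 and 51 in Gm24452. In Gm24453 the TGATGA match began at base 17, against bases 6 to 9 in the other rows with a match. Its marked letters, and so its spacing, may therefore not be those of its C box. Gm22744 was the only one of the 8 without a further CTGA elsewhere, the letters that also make up an internal D' box. In Gm23246 1 of the 3 further matches overlapped the C box. The rows ended 65 to 77 bases before the next exon, except Gm23246, which ended 121 bases before it. Snord22 was the longest, at 126 bases, and the other rows measured 65 to 76. Apart from Gm22680, no row shared a run of 20 bases with another small RNA row among the 5446 of 5518 in the annotation. The rows outside it were not searched. Gm22680 shared one with Gm23389 of chromosome 1, which had 0 counts in every library.

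Together the Snhg1 rows held a small part of the TEsR counts, larger in MEFs than in MES, and several percent of the TruSeq counts. Their summed share was 0.314% and 0.285% in the MES libraries. It was 0.702%, 0.534%, 1.11% and 0.778% in MEFmmS1, MEFmmS2, MEFpmS1 and MEFpmS2. In the TruSeq libraries ATCACG and CGATGT, named by their index, it was 4.81% and 7.70%. The 3 groups did not overlap, at means of 0.299% ± 0.0210 (SD, n = 2), 0.782% ± 0.243 (SD, n = 4) and 6.26% ± 2.04 (SD, n = 2). The MEF mean by TEsR was 2.61 times that of MES and the TruSeq mean was 8.002 times that of MEFs by TEsR, but the exact two-sided permutation test gave p = 0.133 for each, the smallest these group sizes allow. The share depends on the few rows that fill each library. Of the counts left without the 2 leading rows of each library, a denominator chosen after seeing the data, the Snhg1 rows held 1.63% ± 0.0256 (SD, n = 2), 3.74% ± 0.661 (SD, n = 4) and 20.4% ± 4.95 (SD, n = 2).

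**Figure D1:**
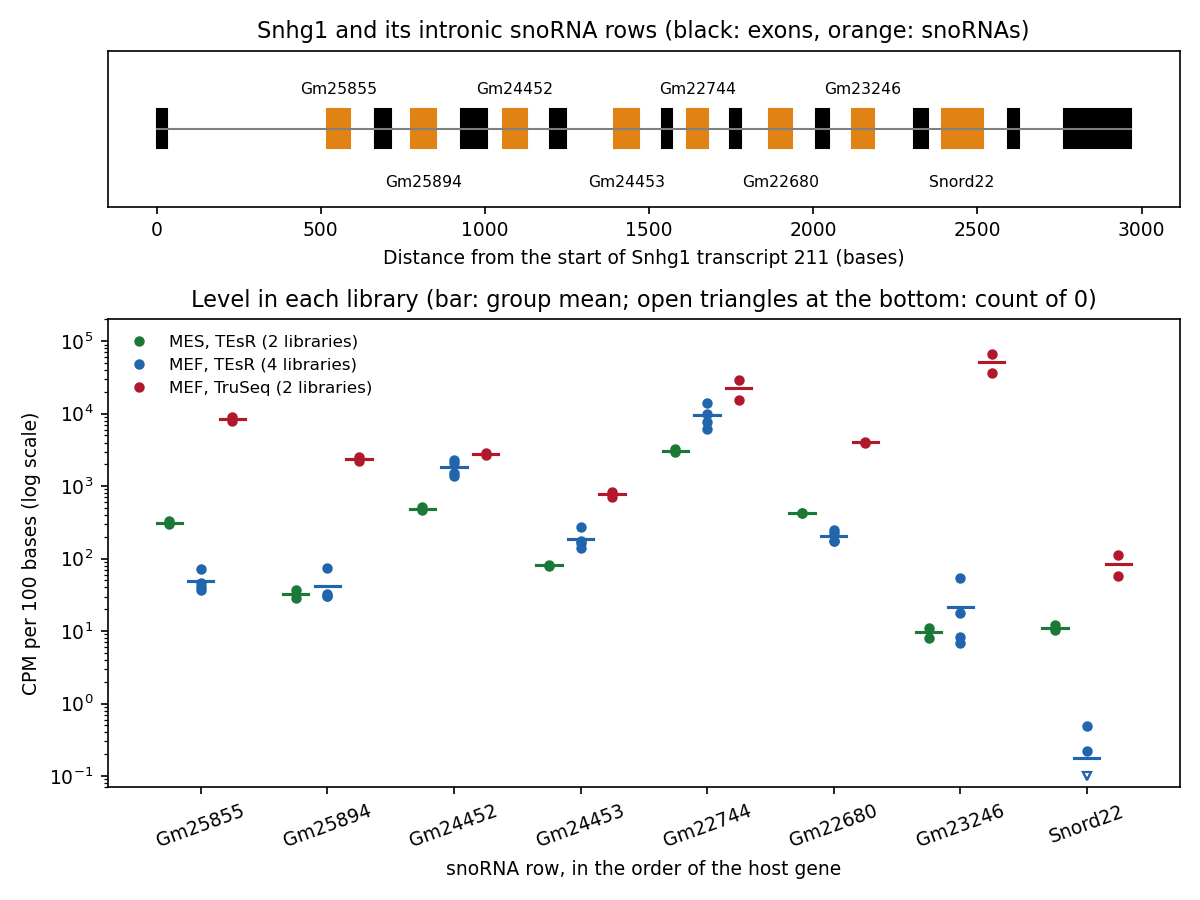
Top, exons of Snhg1 (black) and its snoRNA rows (orange) against the distance in bases from the transcript's start. Bottom, CPM per 100 bases on a log axis for each row in host order, where points are libraries, bars are group means and the open triangle marks the 2 MEF libraries by TEsR with 0 counts of Snord22; Gm23246 shows the widest gap between TruSeq and TEsR.

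Gm22744 and then Gm24452 led the rows in both cell types by TEsR, while Gm23246 led by TruSeq. Levels were compared between rows as CPM per 100 bases of the row. In MES, Gm22744 led at 3102 ± 252 (SD, n = 2), followed by Gm24452 at 488 ± 37.4, Gm22680 at 430 ± 0.697, Gm25855 at 312 ± 20.01, Gm24453 at 80.5 ± 0.468 and Gm25894 at 32.9 ± 5.64. The last were Snord22 at 11.2 ± 1.12 and Gm23246 at 9.60 ± 2.20 (SD, n = 2 for each), the only neighbours in that order whose ranges overlapped. This overlap depends on the division by length: in CPM, Snord22 at 13.1 and 15.1 lay above Gm23246 at 5.39 and 7.47. In MEFs by TEsR, Gm22744 led at 9443 ± 3410 (SD, n = 4), before Gm24452 at 1823 ± 440, Gm22680 at 208 ± 36.0, Gm24453 at 189 ± 57.8, Gm25855 at 48.5 ± 15.5, Gm25894 at 42.1 ± 21.7, Gm23246 at 21.5 ± 21.7 and Snord22 at 0.179 ± 0.234 (SD, n = 4 for each). There the ranges of Gm22680 and Gm24453, of Gm25855 and Gm25894, and of Gm25894 and Gm23246 overlapped. By TruSeq, Gm23246, at or next to the bottom in TEsR, was first at 51849 ± 21371 (SD, n = 2) and Gm22744 second at 22329 ± 9929. Gm25855, Gm22680, Gm24452, Gm25894, Gm24453 and Snord22 followed at 8400 ± 677, 4055 ± 91.0, 2789 ± 98.8, 2348 ± 197, 767 ± 84.3 and 83.9 ± 38.2 (SD, n = 2 for each), and no neighbours overlapped.

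**Figure D2:**
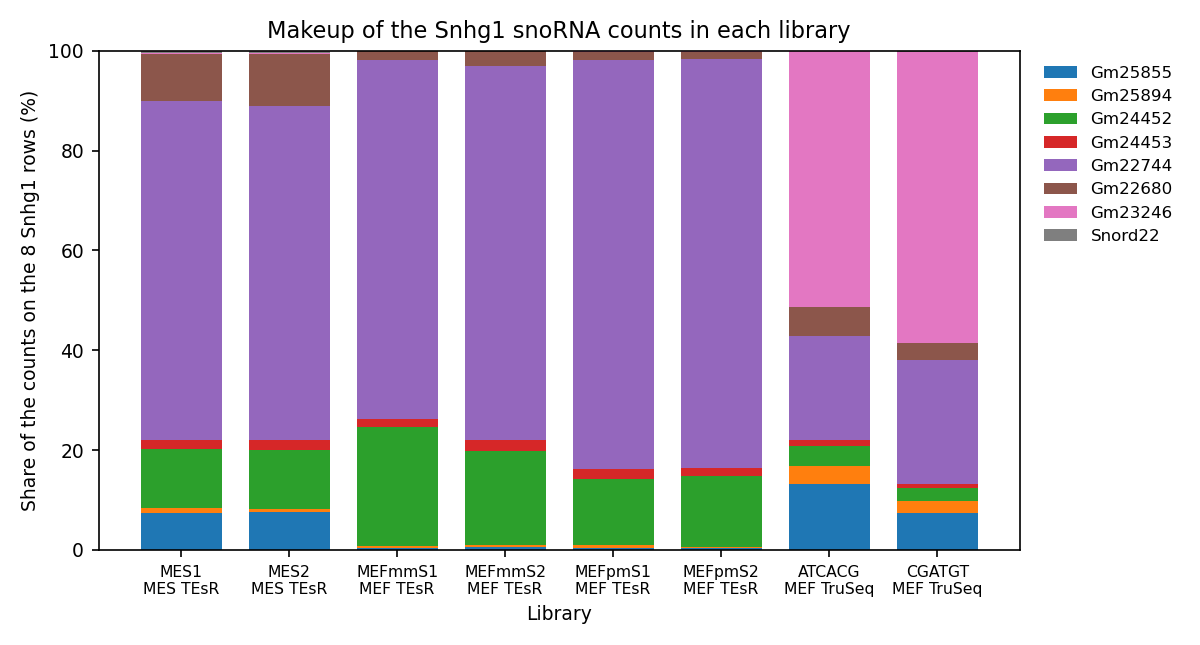
Share in percent of the counts on the 8 Snhg1 rows held by each row, 1 bar per library. Gm22744 fills 66.8% to 82.0% of every TEsR bar, and Gm23246 fills 51.2% and 58.3% of the TruSeq bars.

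The comparison of MES with MEF cells within TEsR asks how the Snhg1 snoRNAs differ between cell types measured by 1 method. Rows of the same host transcript differed in opposite directions: Gm25855, Gm22680 and Snord22 were higher in MES, Gm24452 was higher in MEFs, and the other 4 did not pass the test. By edgeR's quasi-likelihood test with Benjamini-Hochberg adjustment over 273 rows, 43.6% of all rows were called higher in MES and 31.5% lower, 75.1% in either direction. The 3 and 1 of 8 Snhg1 rows lie below these shares, and the 3 include Snord22, which entered the test through the MES libraries alone. Of 150 snoRNA rows in the test, 93 were called higher and 21 lower in MES. Fold changes depend on how libraries are scaled, and those of the fit are scaled otherwise than CPM. Over all rows the median log2 fold change was 0.45, with 0.32 under DESeq2's scaling and -0.38 under library size only, and over the Snhg1 rows it was 0.13, with -0.04 and -0.76 under the same alternatives.

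Snord22 (ENSMUSG00000065087, intron 8, chr19:8725866-8725991), the U22 snoRNA, showed the widest difference. The MES libraries held 42 and 35 counts, MEFmmS1 and MEFmmS2 held 0, MEFpmS1 held 1 and MEFpmS2 held 2. Every MES library was above every MEF library, and the limit of 3 counts set for a count of 0 corresponds to 0.804 and 0.796 CPM in the first 2 MEF libraries. Over the summed counts the ratio of MES to MEF was 67.0, with a 95% counting interval of 22.1 to 332, and the fitted log2 fold change was 6.58 ± 0.86 (SE), at an adjusted p of 5.43e-05. Without MEFpmS2, which held 2 of the 3 MEF counts, it was 7.57, in a range of 6.02 to 7.57 over the libraries left out in turn. Snord22 passed the filter on low counts through the MES libraries alone, so its p-value is given as a description only.

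Gm25855 (ENSMUSG00000064721, intron 1, chr19:8723993-8724064), the first snoRNA of the host, stood at 235 and 214 CPM in MES. In MEFmmS1, MEFmmS2, MEFpmS1 and MEFpmS2 it stood at 32.7, 26.3, 51.2 and 29.5 CPM. The groups were far apart, by a log2 fold change of 3.51 ± 0.33 (SE), at an adjusted p of 7.68e-06. In mean CPM, which is scaled to the library total and not as in the fit, MES was 6.43-fold higher. With library size only the log2 fold change was 2.68. Gm22680 (ENSMUSG00000065782, intron 6, chr19:8725341-8725409) had almost equal values in both MES libraries, 297 and 296 CPM. Its MEF values were 123, 158, 171 and 122 CPM in the same order, all below MES. Its log2 fold change was 1.83 ± 0.36 (SE), at an adjusted p of 8.09e-04. In mean CPM it was 2.07-fold higher in MES, and with library size only its log2 fold change was 1.05.

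Gm24452 (ENSMUSG00000065281, intron 3, chr19:8724531-8724602) went the other way, with 370 and 332 CPM in MES. The MEF libraries held 1673, 1004, 1480 and 1093 CPM, all above MES. Its log2 fold change was -1.10 ± 0.35 (SE), at an adjusted p of 0.0142. The call was lost when either MES library was left out, at adjusted p = 0.126 without MES1 and 0.146 without MES2.

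Gm22744 (ENSMUSG00000065378, intron 5, chr19:8725092-8725156) was the most abundant Snhg1 row in TEsR. It stood at 2132 and 1900 CPM in MES and at 5061, 3996, 9127 and 6366 CPM in the MEF libraries. Although these ranges did not overlap, its log2 fold change of -0.79 ± 0.34 (SE) missed the threshold (edgeR adjusted p = 0.0567). The call changed with the fit: it passed as lower in MES with DESeq2 (adjusted p = 0.0323), with library size only (adjusted p = 0.00483), with the TruSeq libraries in the same fit (adjusted p = 0.0237), without MEFmmS1 (adjusted p = 0.0305) and without MEFmmS2 (adjusted p = 0.0237). Gm24453 (ENSMUSG00000065280, intron 4, chr19:8724868-8724943) lay at 61.4 and 60.9 CPM in MES and at 108, 125, 207 and 134 CPM in the MEF libraries. Its log2 fold change was -0.42 ± 0.36 (SE), at an adjusted p of 0.297, and it passed, at -1.23, with library size only (adjusted p = 0.0317).

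The last 2 rows overlapped between the cell types. Gm25894 (ENSMUSG00000065392, intron 2, chr19:8724251-8724325) had 27.6 and 21.7 CPM in MES and 23.1, 24.7, 56.0 and 22.7 CPM in the MEF libraries, a log2 fold change of 0.49 ± 0.41 (SE), at an adjusted p of 0.297. Its mean CPM was lower in MES, at 24.7 against 31.6 in MEFs, and with library size only its log2 fold change was -0.36. Gm23246 (ENSMUSG00000065305, intron 7, chr19:8725594-8725660) was counted 15 and 20 times in the MES libraries, against 17, 21, 126 and 38 times in those of MEFs, a log2 fold change of -0.23 ± 0.74 (SE), at an adjusted p of 0.791. Without MEFpmS1 the sign turned, to 0.43. MEFpmS1 was the highest of the 4 MEF libraries for 6 of the 8 rows. No such count was made over all rows, so this is a description. The 2 leading rows held 76.2% of the counts of MEFpmS1, against 78.9% to 83.1% in the other MEF libraries by TEsR. Of the 8 rows, 6 did not overlap between the cell types, beside 83.5% of all rows tested.

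Ratios between rows of 1 library do not depend on scaling. Of the 7 ratios of Gm22744 to another row, 4 had ranges that did not overlap between the cell types (Gm25855, Gm25894, Gm22680 and Snord22) and 3 overlapped. Ratios to rows outside Snhg1 were not computed, so no share over all rows stands beside this count, and it is a description. For Snord22 the MEF range holds only MEFpmS1 and MEFpmS2, on 1 and 2 counts, as the ratio is undefined at a count of 0. Per length, the counts of Gm22744 were 9.82 and 10.1 times those of Gm25855 in MES and 168 to 239 times in the MEF libraries by TEsR. Against Gm22680 the ratio was 6.81 and 7.62 in MES and 26.9 to 56.7 in MEFs. Against Gm24452 it was 6.34 and 6.38 in MES, inside the MEF range of 3.35 to 6.83. The ranges also overlapped for Gm24453, at 36.5 to 40.6 in MES and 37.3 to 55.5 in MEFs, and for Gm23246, at 262 to 408 and 264 to 1144. Of the counts on the Snhg1 rows, Gm25855 held 7.47% and 7.53% in MES and 0.379% to 0.492% in MEFs, while Gm24453 held 1.95% and 2.14% in MES and 1.53% to 2.35% in MEFs. An exact permutation test on such values cannot go below p = 0.133 with these group sizes.

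**Figure D3:**
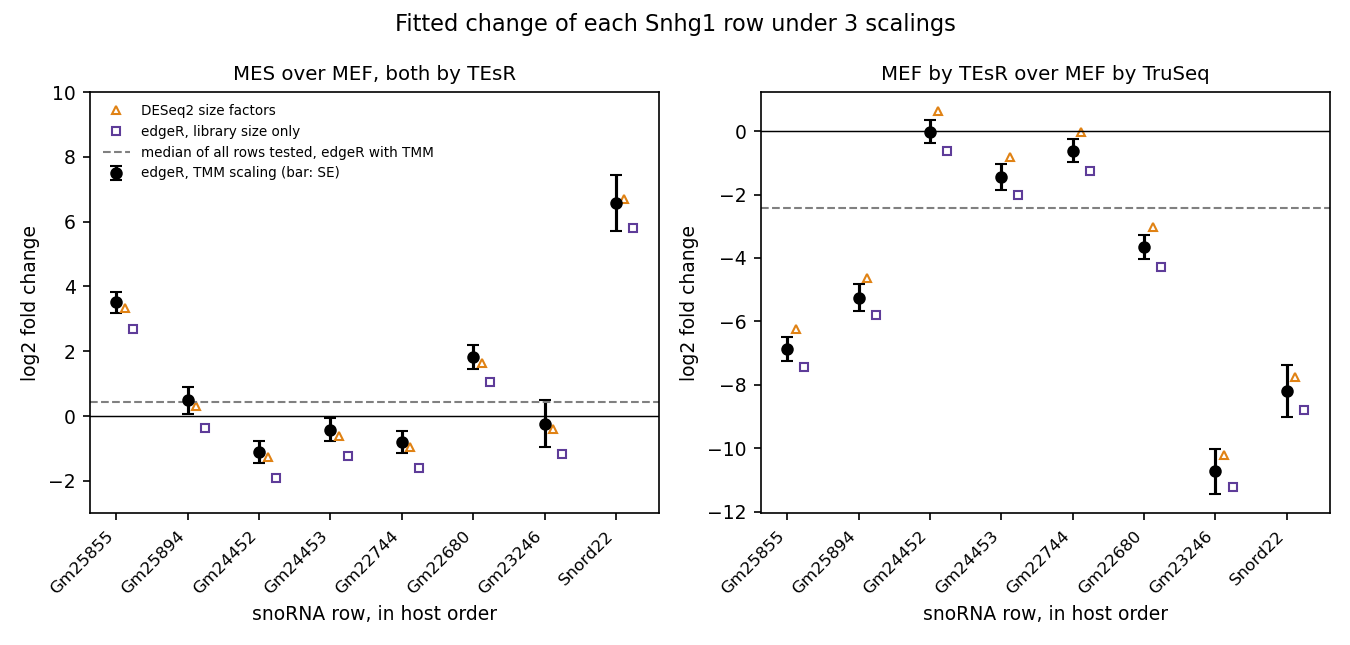
Log2 fold change of each Snhg1 row in host order, for MES over MEF by TEsR (left) and MEF by TEsR over TruSeq (right); black points with SE are the edgeR fit, open symbols the same under DESeq2's scaling and library size only, and the dashed line the median of all rows tested. On the left Gm25855, Gm22680 and Snord22 stay above 0 under each scaling, and on the right Gm24452 lies near 0 and Gm23246 at -10.73.

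MEF cells were also measured by both methods, which asks how far the library method sets the counts of these RNAs. Instrument, depth, ribosomal RNA removal, the removal of caps in TEsR and, for 2 of the 4 TEsR libraries, induction differ as well and cannot be told apart from the method. Of the 8 rows, 6 were lower by TEsR than by TruSeq and 0 were higher (edgeR, adjusted p under 0.05; also 6 and 0 at an unadjusted p under 0.05, and 6 and 0 with DESeq2). Each of these counts includes Snord22, which entered the test through the TruSeq libraries alone and is a description only. Among all 352 rows tested, 55.7% were lower and 32.4% higher, 88.1% in either direction. The 218 snoRNA rows in the test included 166 lower and 23 higher ones. The median log2 fold change was -4.45 for the Snhg1 rows, -4.68 for the snoRNA rows and -2.42 for all rows, the last at -1.78 under DESeq2's scaling and -3.02 under library size only. All 8 rows had non-overlapping CPM, as did 90.3% of the rows tested.

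Within this 1 host gene the ratio of mean CPM ran from 1.53 to 2414. Gm23246 had 220574 and 378779 counts by TruSeq, or 24614 and 44863 CPM, against 4.56, 5.57, 35.6 and 11.8 CPM in MEFmmS1, MEFmmS2, MEFpmS1 and MEFpmS2. Its mean CPM was 2414 times higher by TruSeq, and its log2 fold change was -10.73 ± 0.72 (SE), at an adjusted p of 5.70e-08. Without MEFpmS1, the highest TEsR library, the TEsR mean was 7.31 CPM, the ratio 4753 and the log2 fold change -11.53. Snord22 followed with 71.6 and 140 CPM by TruSeq, against 3 counts over the 4 TEsR libraries. Over summed counts its ratio of TEsR to TruSeq was 0.00201, with a 95% counting interval of 0.000414 to 0.00588, and its log2 fold change was -8.19 ± 0.83 (SE), at an adjusted p of 1.18e-06, or -9.24 without MEFpmS2. Here Snord22 passed the filter through the TruSeq libraries alone, so this p-value too is a description only. Gm25855 reached 6393 and 5703 CPM by TruSeq, 173 times its TEsR mean of 34.9 ± 11.2 (SD, n = 4), and its log2 fold change was -6.87 ± 0.39 (SE), at an adjusted p of 1.01e-08.

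Gm25894 stood at 1656 and 1865 CPM by TruSeq, 55.7 times its TEsR mean of 31.6 ± 16.3 (SD, n = 4), and its edgeR adjusted p was 1.38e-07. Gm22680 stood at 2842 and 2753 CPM, 19.5 times its TEsR mean of 143 ± 24.8 (SD, n = 4), with an edgeR adjusted p of 1.37e-06. Gm24453 was at 628 and 538 CPM by TruSeq, 4.06 times its TEsR mean of 144 ± 43.9 (SD, n = 4). Its log2 fold change of -1.44 ± 0.41 (SE), at an adjusted p of 0.00456, was above the median of all rows, and without the library ATCACG it did not pass (adjusted p = 0.158).

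The remaining rows, Gm22744 and Gm24452, did not pass. Gm22744 had 9951 and 19077 CPM by TruSeq and a TEsR mean of 6138 ± 2216 (SD, n = 4), with a log2 fold change of -0.62 ± 0.36 (SE), at an adjusted p of 0.1204. It passed as lower by TEsR with library size only (-1.24, adjusted p = 0.0108). Gm24452 had 1957 and 2058 CPM by TruSeq and a TEsR mean of 1312 ± 317 (SD, n = 4), with a log2 fold change of -0.01 ± 0.36 (SE), at an adjusted p of 0.976. Its sign depended on the scaling, at 0.63 under DESeq2's scaling and -0.61 under library size only. These rows, which led the TEsR order, had the smallest ratios between the methods of the 8. The TEsR level enters both the order and the ratio, so rows high by TEsR tend to have small ratios in any case.

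Between MES by TEsR and MEFs by TruSeq, where cell type, method and instrument all change and the libraries are those of the other comparisons, all 8 Snhg1 rows were lower in MES and none overlapped. Among all 352 rows tested 50.0% were lower and 36.6% higher, 86.6% in either direction, and 97.2% had ranges that did not overlap. The calls were 219 lower and 101 higher with library size only against 176 and 129. The log2 fold change was -11.01 ± 0.40 (SE) for Gm23246, -4.80 ± 0.20 for Gm25894 and -3.39 ± 0.18 for Gm25855. For the other 5 rows it lay between -1.89 for Gm24453 and -1.15 for Gm24452, and of these Gm22744 and Snord22 did not pass without MES1 (adjusted p of 0.0748 and 0.0942), nor did they (0.124 and 0.159) or Gm24452 (0.0572) without MES2.

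Other box C/D snoRNAs give the setting for these rows. Of 69 tested rows named Snord outside Snhg1, 42 were higher in MES than in MEFs by TEsR and 10 lower, with a median log2 fold change of 2.42. Of the 10 rows of Gas5, another noncoding host of box C/D snoRNAs, 7 were higher in MES and 3 did not pass, with a median of 3.68. Between the methods in MEFs, 53 of 76 Snord rows and 7 of 10 Gas5 rows were lower by TEsR, and 10 and 2 were higher.

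The rows whose profile over the 8 libraries was most like those of the 2 most abundant Snhg1 rows were sought among 289 rows, by the root mean square difference of centred log2(CPM + 1). For Gm23246 they were Gm25099, a small nuclear RNA row (0.88), Snord1a (1.29) and Snord19 (1.34). Gm25099 had mean CPM of 0 in MES, 0.0670 in MEFs by TEsR and 3968 by TruSeq. For Gm22744 they were Snord78 (0.48), Snord2 (0.48) and Gm23301 (0.50), of which Snord2 had means of 236, 1132 and 2543 CPM in the same order. The libraries share method and cell type, so that this likeness is a description.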

How the data were processed

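The authors deposited raw counts, whole numbers of reads for each small RNA row, in 2 tables with the same rows. The submitters' processing notes name mm10, bedtools 2.25.0, SAMtools 1.2.1, BWA 0.7.12 and cutadapt, without roles. Settings, strand use and the treatment of multiply matching reads are not stated there. RNA came from the mirVana kit with or without small RNA enrichment, per the labels' protocols, and ribosomal RNA was removed before capture. The columns of TEsR alone are tagged q10, which the sources used here do not explain. Columns were assigned by name. The members, lists and tests were chosen with earlier results of these data known.

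CPM are counts relative to the total of the library. The 95% interval of a ratio of summed counts is exact (Clopper-Pearson). For a count of 0 the limit was set at 3 counts. No molecular identifiers are named, so intervals and limits cover counting error only. The main test was edgeR 4.0.16 in R 4.3.3 (robust quasi-likelihood fit after TMM scaling, rows kept by filterByExpr at a minimum of 10 counts), fitted on all rows of the 2 groups compared. Calls were made at a Benjamini-Hochberg adjusted p under 0.05. The SE is the log2 fold change divided by the square root of F. On simulated counts with known changes, the test for MES against MEFs by TEsR, over 261 rows, called 71.4% of changes of 4-fold, 100% of those of 16-fold and 2 of 130 unchanged rows. For MEFs by TEsR against TruSeq, over 324 rows, it called 85.5%, 100% and 5 of 158. No library repeated another: within groups the chi-square over its degrees of freedom was at least 21.9. Alternatives were DESeq2 1.42.0, other scalings, filters and samples. Every Snhg1 row is named. Rows most like the 2 with the highest mean CPM were taken by a rule, 3 for each. Gene types, exons and sequences come from GENCODE vM21, at the same mm10 coordinates.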

Additional observations from a re-analysis of the deposited data

Results flagged for a closer look

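In MEFs by TEsR, Gm25894 reached 56.0 CPM in MEFpmS1, apart from 22.7 to 24.7 CPM in the other 3 libraries. Its gap to the next library was 0.939 of the range of the group, above Dixon's 95% critical value for 4 samples, which chance passes in about 1 of 20 groups. The same library was the highest for 6 of the 8 rows, a count with no share over all rows beside it. The other rows and the summed share did not pass this limit, with Gm23246 at 0.767.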

How the results depend on the processing

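Gm25855 and Gm22680 stayed higher in MES than in MEFs by TEsR in every fit run, at log2 fold changes of 2.68 to 3.57 and 1.05 to 1.92. Both passed wherever both MES libraries were kept. Snord22 lay at 5.81 to 7.57, but it passed the filter on low counts through its high group alone, so its calls are a description only. The number of Snhg1 rows lower in MES, 1, was 2 with DESeq2, 3 with library size only and 2 with all 3 groups in one fit. It was also 2 without MEFmmS1 and without MEFmmS2. Gm25894 turned to -0.36 with library size only, and Gm23246, at -0.70 to 0.43 with 1 library left out, to 0.43 without MEFpmS1. Between the methods in MEFs, 6 rows, Snord22 among them, were lower by TEsR with any 1 TEsR library left out. Gm24453 weakened to -0.92 without ATCACG. Gm24452, near 0, turned to 0.63 with DESeq2, 0.11 without the filter, 0.15 with overlapping rows taken once and ranged from -0.27 to 0.34 with 1 library left out (0.02 without MEFmmS2, 0.19 without MEFpmS2, 0.34 without ATCACG). For MES against TruSeq 5 to 8 rows were lower with 1 library left out. The cause was not tested. Where a group was left with 1 library, that library is assumed to vary like the others. The summed share was 8.44% of the snoRNA counts by TruSeq, and 1.63%, 3.74% and 20.4% in MES, MEFs by TEsR and TruSeq without the 2 leading rows; with 1 library left out it was 0.285% to 0.314%, 0.671% to 0.864% and 4.81% to 7.70%. With the number in the TEsR column names as a replicate block, 3 Snhg1 rows, Snord22 among them, were higher and 1 lower in MES. Of all rows, 117 and 77 were, against 119 and 86. The deviations of same-numbered MES and MEF libraries from their group means correlated at -0.0427 to 0.00308 over 273 rows. The deviations of the 2 MES libraries mirror each other and the MEF mean mixes both codes, so this check cannot decide whether equal numbers mark a pairing. The TruSeq columns carry no number, and no block was fitted there. A fit of the induced TEsR libraries alone was not run, since the codes mm and pm are not explained. Few counts limit Snord22 and Gm23246 by TEsR.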

Other observations

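The ratio of Gm22744 to Snord22, taken per length within a library, was 274 and 282 in MES by TEsR and 265 and 269 in MEFs by TruSeq, while in the 2 MEF libraries by TEsR with a count of Snord22 it was 19879 and 62577, on 2 and 1 counts. The ratio of Gm22744 to Gm23246 showed another grouping, at 0.417 and 0.438 by TruSeq and 262 or more in every TEsR library of either cell type. These pairs were chosen after their values were seen, and no cause was tested.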
